A study of Mus musculus with 16 samples.

Results

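The genes of the proteasome were compared on arrays of mouse tibialis anterior, a fast muscle of the lower leg. Members were the genes with a non-control probe whose RefSeq accession mapped to a symbol that starts with Psm, then a letter from a to g and a digit. They came to 49 of the 24829 genes tested and had 69 probes, and each gene was represented by its probe with the highest mean signal. By role, 7 encode the outer alpha ring of the 20S core particle, 7 its constitutive beta ring, 4 the inducible or thymic beta subunits, 6 the ATPases and 11 the other subunits of the 19S regulatory particle. A further 4 are assembly chaperones of the core, 3 are assembly chaperones of the regulatory particle, and 5 are activators or an inhibitor that dock on the core. The pattern also caught Psmc3ip, which encodes a recombination protein, and Psme3ip1, whose protein binds an activator. These 2 are no subunits and are kept apart, and without them 47 members remain.

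The arrays came from the offspring of dams that ate normally (control) or had 50% of their food withheld in week 3 of gestation (undernourished). The offspring themselves were on 1 of 2 diets, Ad Lib (abbreviated AL) or Colorie Restricted as the labels spell it (calorie restriction, CR). Dam and offspring diet were crossed into 4 groups (control AL and CR, undernourished AL and CR) with 4 replicates each, and each replicate was RNA pooled from 2 of the group's 8 mice. The labels give no strain, sex, age, genotype or length of restriction, and do not say which mice share a litter, so p-values measure only the spread between these pools. All AL arrays were on slides 1 and 2 and all CR arrays on slides 3 and 4, scanned on another day, so offspring diet cannot be told apart from slide and scan day, while maternal diet varied within every slide.

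The proteasome is the protease that destroys proteins tagged with ubiquitin. Its 20S core is a barrel of alpha and beta rings with the active sites on 3 kinds of beta subunit, and its 19S cap binds the tagged protein, removes the tag and threads the chain into the barrel. In muscle it takes apart much of the contractile protein lost during fasting and disuse. Interferon swaps the active-site subunits for inducible ones, which makes the immunoproteasome, and the transcription factor NRF1 raises many subunit genes together when proteasome activity is short.

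RefSeq windows of 250 bases before to 50 bases after a transcript start (assembly GRCm38.p6) were matched to 42 members, with 46 windows. The stretches below are the 120 bases before the start of genes on which the results turn, with a match on either strand to TGACNNNGC, the core of the element that NRF1 binds, or to CCGGAAG, the core bound by ETS factors, in capitals. Psmb5 (chr14:54617996-54618115, minus strand) encodes the chymotrypsin-like active site, Psmd6 (chr14:14120946-14121065, minus strand) a lid subunit of the cap and Psme3 (chr11:101316093-101316212, plus strand) a nuclear activator. Psmg1 (chr16:95990961-95991080, minus strand) and Psmg4 (chr13:34162844-34162963, plus strand) encode chaperones of core assembly.
Psmb5: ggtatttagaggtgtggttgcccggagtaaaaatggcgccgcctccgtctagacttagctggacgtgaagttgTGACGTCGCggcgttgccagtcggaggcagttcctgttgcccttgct
Psmd6: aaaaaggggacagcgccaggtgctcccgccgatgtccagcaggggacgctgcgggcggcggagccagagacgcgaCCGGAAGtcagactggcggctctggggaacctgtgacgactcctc
Psme3: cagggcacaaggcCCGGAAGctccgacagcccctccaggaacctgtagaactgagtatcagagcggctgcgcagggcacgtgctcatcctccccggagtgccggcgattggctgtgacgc
Psmg1: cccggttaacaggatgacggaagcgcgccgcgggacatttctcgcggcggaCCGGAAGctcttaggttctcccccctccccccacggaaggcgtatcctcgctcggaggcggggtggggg
Psmg4: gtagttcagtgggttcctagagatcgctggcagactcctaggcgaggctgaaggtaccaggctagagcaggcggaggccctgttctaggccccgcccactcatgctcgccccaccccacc
With the first transcribed base counted as 0, the marked match began at position -47 in Psmb5, -45 in Psmd6, -107 in Psme3 and -69 in Psmg1, and the stretch of Psmg4 held neither sequence. Of the members' windows, 37.0% held CCGGAAG, against 8.9% of all 32851 windows in the table. TGACNNNGC was in 13.0% of the members' windows and in 12.4% of all. Of the other 6 motifs searched, the GC box GGGCGG was in 54.3% against 35.7%, the interferon element core in 10.9% against 3.4%, TGAGNNNGC in 30.4% against 17.6%, the E box CACGTG in 10.9% against 7.2%, the CCAAT box in 34.8% against 37.4% and TTCNNNGAA in 6.5% against 8.3%. The interferon element core was in windows of Psmb3, Psmd4, Psmd9, Psme1 and Psmg4, and in none of Psmb8, Psmb9, Psmb10 or Psme2. TGAGNNNGC differs from the NRF1 core in 1 base, and matches to different motifs can share bases. The matches describe these letters in these windows and were not tested as binding sites.

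A signal was read for all 49 members. On each of the 16 arrays 48 of them passed the scanner's test as well above background. The exception was the thymic subunit Psmb11, on 15. Values are log2 processed signal minus the array's 75th percentile, so that 0 is the 75th percentile of that array, and levels of different probes are not compared. The median SD between the arrays of a group was 0.184 for members and 0.287 for all genes. These sets were not matched for signal, since a probe well above background on at least 4 arrays was kept among all genes. Psmc3ip stood apart with an SD of 1.38, against 0.342 for the next member, the immunoproteasome subunit Psmb9. Psmc3ip was at -1.12, -1.06, 0.50 and 2.32 in control AL, at -0.76, 1.33, -0.53 and -0.31 in control CR, at 2.40, 1.1, 1.5 and -1.15 in undernourished AL and at 1.12, 2.37, -0.56 and 2.19 in undernourished CR. Its second probe, between -2.31 and 1.39, was high and low on the same pools. The high and low pools of Psmc3ip were spread over all 4 groups, and no comparison called it.

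The arrays also differed in tissue transcripts, which bears on every diet comparison below. The 16 markers of skeletal muscle passed that test on every array, with a median log2 signal between 8.70 and 9.32. The 29 brain markers measured had a median of 2.34, 2.19, 0.14 and -0.61 in control AL and between -1.77 and 0.41 in undernourished AL, against -4.79 to -4.04 on the CR arrays, where 19 of 29 in control CR and 18 of 29 in undernourished CR were still well above background on all arrays. Their log2 summed signal ranged from 5.75 to 8.24 in control AL, from 5.23 to 6.18 in undernourished AL, from 5.10 to 5.50 in control CR and from 5.11 to 5.22 in undernourished CR. Skin markers (16 measured) reached a median of 0.35, 1.22 and -0.14 on control AL replicates 1, 2 and 3, and lay between -3.82 and -1.68 on the other 13 arrays. The highest of those 13 were undernourished CR replicate 2 (-1.68) and undernourished AL replicate 3 (-1.82). Liver markers (10 measured) had their highest median, -2.43, on undernourished AL replicate 3. Control CR replicate 1 came next at -3.21, and the fit below without arrays raised in skin or liver markers kept it. In a pooled tissue, fewer cells of a type and less RNA per cell cannot be told apart.

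The first comparison asked how calorie restriction changed proteasome genes in offspring of control dams. In CR, 10 of 49 members rose and 0 fell, spread over core assembly, the alpha ring and the 19S cap, while no constitutive, inducible or thymic beta subunit and no activator passed the test; under quantile normalization 8 rose and 3 fell. A call is an adjusted p under 0.05 from limma with Benjamini-Hochberg adjustment over all genes, and each difference below is CR minus AL on the log2 scale ± SE with 4 arrays per group. Over all genes 16.8% rose and 15.1% fell (31.9% called), while 20.4% of the members rose, so the members' share called was below that of all genes. The members' median difference was 0.17, against 0.06 over all genes, and 37 of 49 were above 0. The groups did not overlap for 9 members that were higher in CR (17% of all genes) and for 1 that was lower (14.6%), 31.5% of all genes in both directions.

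The largest change was in Psmg4, which with Psmg3 forms a chaperone pair that helps to close the alpha ring. It was at 0.72, 0.90, 0.84 and 1.15 in control AL and at 1.98, 2.18, 1.98 and 1.85 in control CR. Every CR pool was above every AL pool, a rise of 1.1 ± 0.21 (adjusted p = 0.00159, limma), or 2.14-fold. Its chaperone partner Psmg3 differed by 0.12 ± 0.14 and was not called. Psmg2, of the other chaperone pair, was at 2.29, 2.40, 2.70 and 2.86 in control AL and at 3.09, 3.16, 3.24 and 3.23 in control CR. It rose by 0.62 ± 0.14 (adjusted p = 0.00433, limma), and its second probe rose by 0.65. Psmg1, the partner of Psmg2, differed by 0.06 ± 0.12 and was not called. Thus 2 of the 4 core chaperones passed, 1 of each pair.

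Of the 11 non-ATPase subunits of the cap, 5 rose and 0 fell, with a median of 0.33. Psmd1, the large scaffold of the base, was at 3.36, 3.55, 3.58 and 3.76 in control AL and at 4.16, 4.22, 4.01 and 4.08 in control CR, a rise of 0.56 ± 0.11 (adjusted p = 0.00211, limma). Psmd2, the other large scaffold and a docking site for ubiquitin shuttles, was at 4.97, 4.94, 5.27 and 5.18 in control AL and at 5.65, 5.95, 5.50 and 5.45 in control CR. It rose by 0.54 ± 0.12 (adjusted p = 0.00411, limma), and its second probe rose by 0.93. Psmd6 was at 4.71, 4.53, 4.95 and 5.15 in control AL and at 5.38, 5.51, 5.42 and 5.28 in control CR, a rise of 0.56 ± 0.14. The groups did not overlap for any of these 3 genes. Psmd13, also of the lid, rose by 0.40 ± 0.11, and Psmd14, which cuts ubiquitin off the substrate, by 0.35 ± 0.12 on the probe used and by 0.34 on its second probe. The 6 subunits not called ranged from -0.17 for Psmd11 to 0.33 for Psmd7.

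Each other class of the cap and the alpha ring had 1 call. Psmd5, a chaperone that holds back the ATPase ring until it is complete, was at 1.07, 1.21, 1.40 and 1.37 in control AL and at 1.87, 1.79, 1.56 and 1.64 in control CR, and rose by 0.45 ± 0.12 (adjusted p = 0.00867, limma). Psmc3, an ATPase, rose by 0.32 ± 0.12 (adjusted p = 0.0464, limma), with overlapping groups. Psma4 of the alpha ring was at 3.05, 2.89, 3.24 and 3.40 in control AL and at 3.62, 3.74, 3.49 and 3.43 in control CR. It rose by 0.43 ± 0.13 (adjusted p = 0.0252, limma) with no overlap, and its second probe rose by 0.48. The other 6 alpha subunits ranged from -0.13 for Psma1 to 0.43 for Psma7, which was not called (SE 0.20, adjusted p = 0.120, limma). Leaving out 1 array could end the calls nearest the threshold: that of Psma4 without AL replicate 1 or 2 or CR replicate 1 or 2 (adjusted p 0.0604 to 0.0852), that of Psmd14 without AL replicate 1 or 2 or CR replicate 2, 3 or 4 (0.0599 to 0.109) and that of Psmc3 without AL replicate 1 or 2 or any CR replicate (0.0553 to 0.139).

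**Figure D1:**
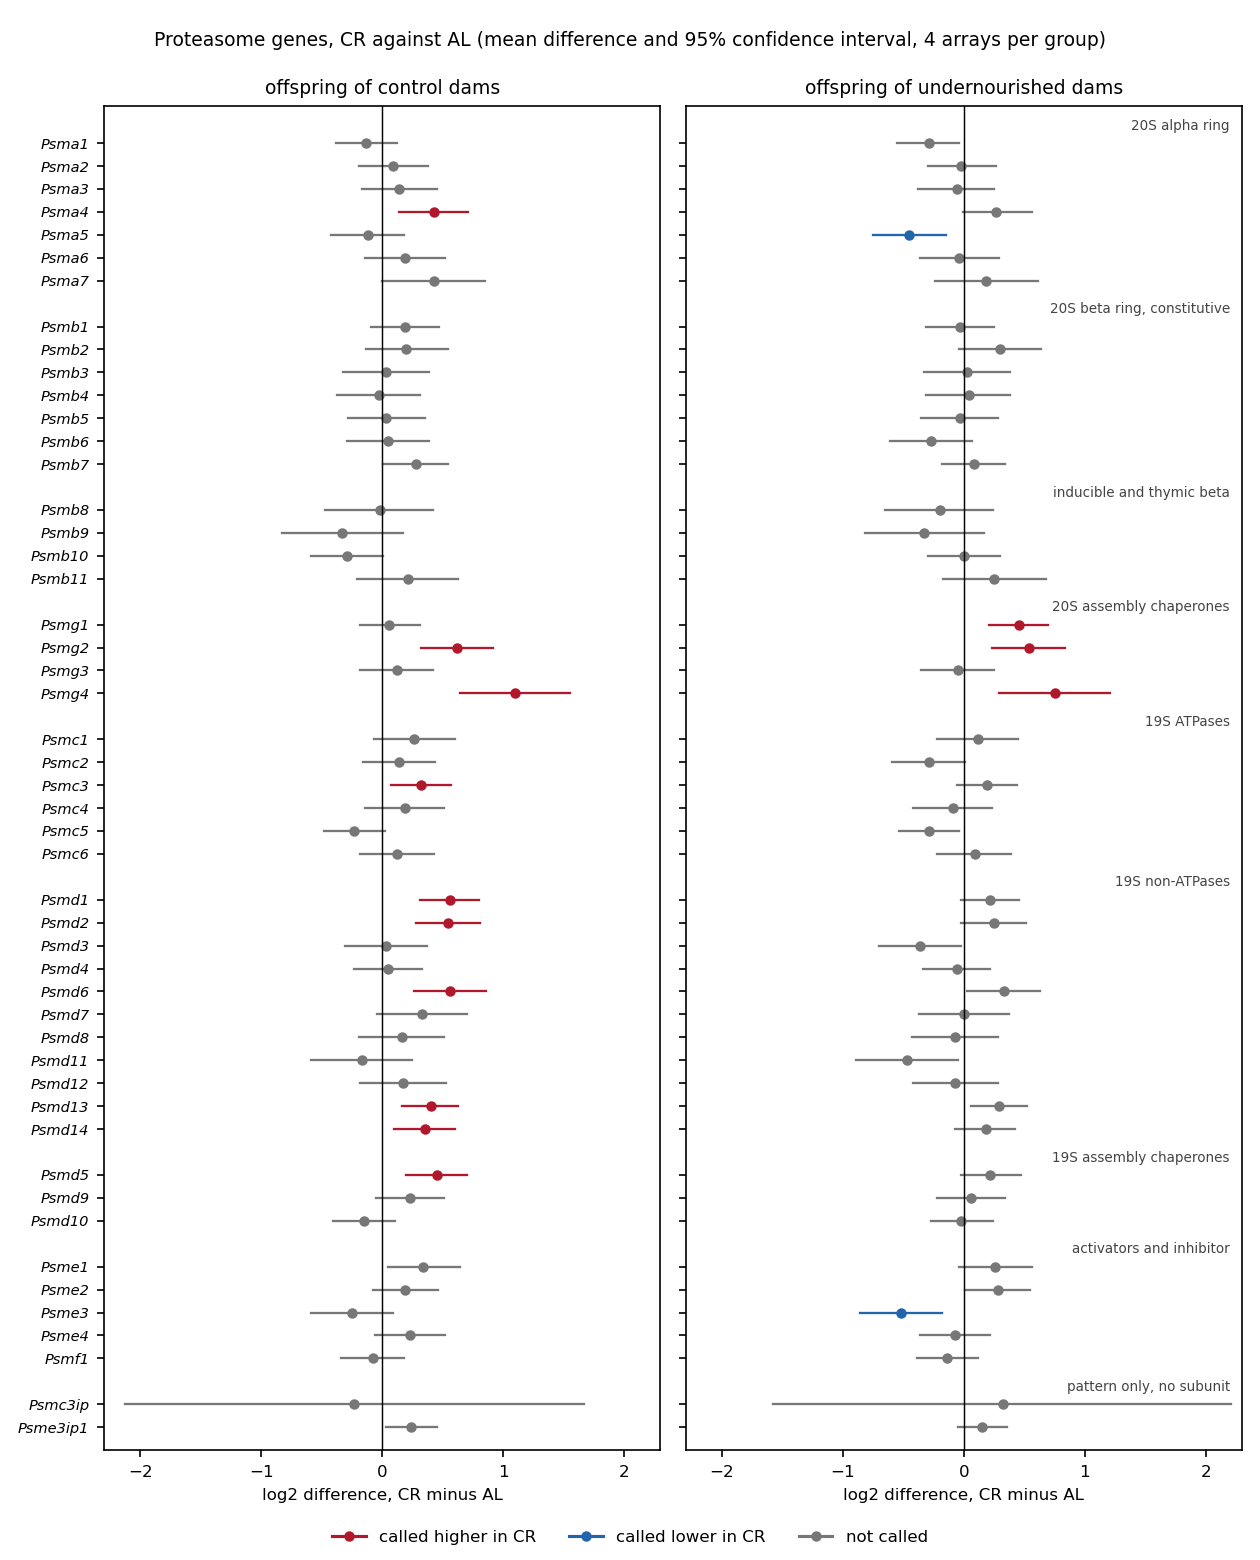
Difference between CR and AL in log2 units (x axis) for the 49 proteasome genes (y axis, by class, named at the right), in offspring of control dams (left) and of undernourished dams (right). Points are mean differences, lines 95% confidence intervals and colours the calls. In offspring of control dams the 10 calls lie to the right of 0, and in offspring of undernourished dams 3 lie to the right and 2 to the left.

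The active-site subunits gave no call. Psmb6 carries the caspase-like site, Psmb7 the trypsin-like and Psmb5 the chymotrypsin-like site. Psmb5 was at 4.43, 4.32, 4.68 and 4.93 in control AL and at 4.52, 4.86, 4.53 and 4.60 in control CR, with a difference of 0.03 and a 95% interval from -0.28 to 0.35. Psmb6 differed by 0.05 (interval -0.29 to 0.39) and Psmb7 by 0.28 (interval 0.01 to 0.54; adjusted p = 0.103, limma). The constitutive beta ring as a whole had a median of 0.05, close to the 0.06 of all genes. The upper bounds for Psmb5 and Psmb6 reach the size of the rise called for Psmd14.

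The inducible subunits Psmb9, Psmb10 and Psmb8, which replace Psmb6, Psmb7 and Psmb5 in that order, gave no call either. Psmb10 was at 3.63, 3.49, 3.36 and 3.56 in control AL and at 3.08, 3.29, 3.14 and 3.35 in control CR. Every CR pool was below every AL pool, and the difference was -0.29 (interval -0.59 to 0.01; adjusted p = 0.127, limma). Psmb9 was at 0.04, 0.11, 0.08 and -0.69 in control AL and at -0.60, -0.04, -0.72 and -0.41 in control CR, a difference of -0.33 with overlapping groups. Psmb8 differed by -0.02 (interval -0.47 to 0.42), and the thymic Psmb11 by 0.21. Psmb8, Psmb9 and Psmb10 are abundant in leukocytes, and 15 of the 20 leukocyte and macrophage markers measured fell in the same comparison. The markers' log2 summed signal was 3.20 to 4.12 in control AL and 2.13 to 2.65 in control CR. The part of those cells in the values of Psmb9 and Psmb10 was not tested.

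Activators open the core in place of the 19S cap, and none of the 5 genes of this class was called. Psme1 and Psme2, the interferon-inducible PA28 subunits, differed by 0.34 ± 0.14 (adjusted p = 0.0733, limma) and 0.19 ± 0.13. Psme3, the nuclear PA28 gamma, differed by -0.25 ± 0.16, and Psmf1, an inhibitor of the core, by -0.08 ± 0.12. Psme4, the large activator PA200, differed by 0.23 ± 0.14 on the probe used, but its 3 probes went apart. A second probe of Psme4 rose by 0.73 in offspring of control dams and by 0.34 in those of undernourished dams, and the third fell by 0.67 and by 0.92. Psmd12, a lid subunit singled out after its values were seen, was at 0.17 on the probe used while a further probe fell by 0.56. In offspring of control dams, 4 of the 19 further probes of 16 members were called in the direction of a called first probe, and 4 more were called, 2 in each direction, where the first was not.

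**Figure D2:**
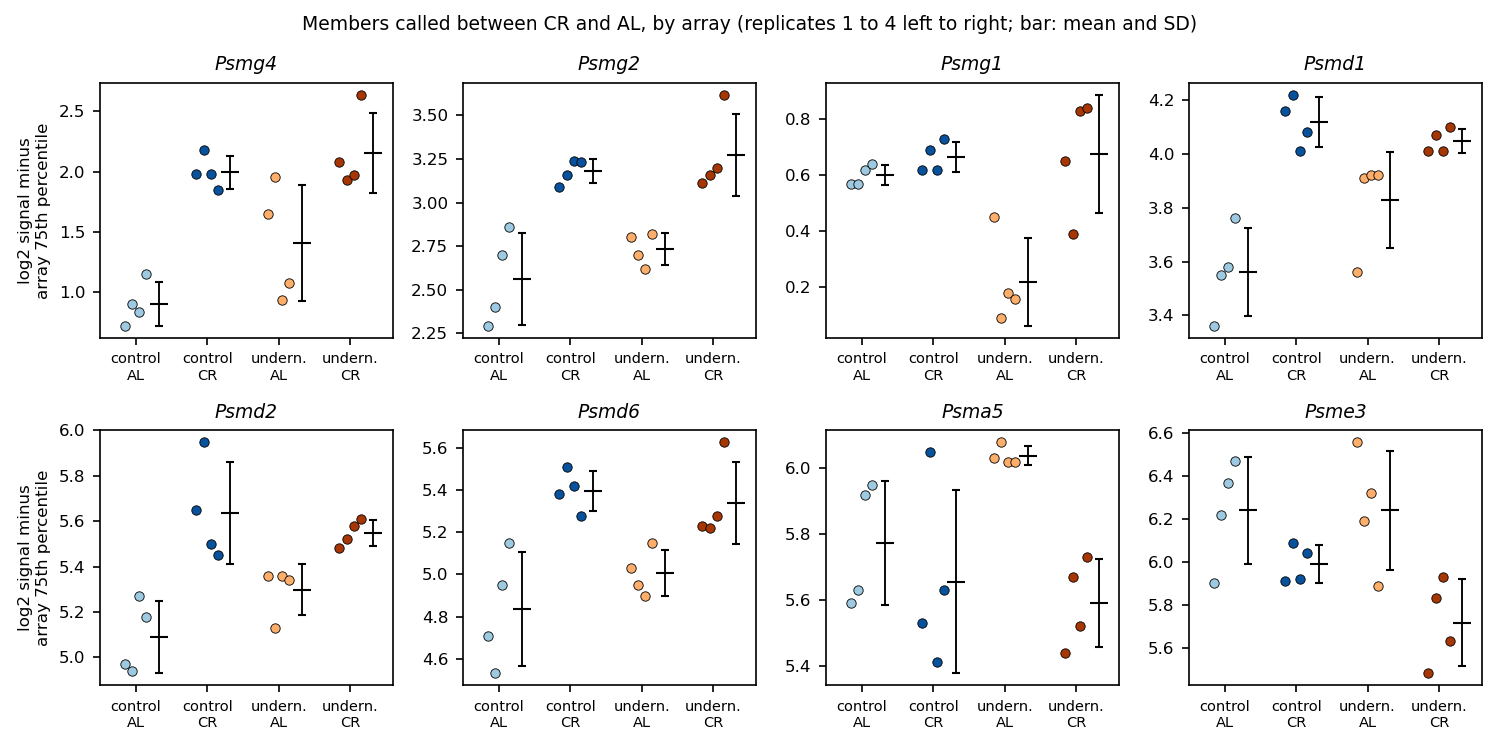
Log2 signal minus the array's 75th percentile (y axis, a separate scale in each panel) on every array, by group (x axis; replicates 1 to 4 from left to right), for 8 of the 13 members called between CR and AL. Horizontal marks and bars are the mean and SD of 4 arrays. For Psmg4, Psmg2, Psmd1, Psmd2 and Psmd6 every control CR pool lies above every control AL pool, and Psma5 in undernourished CR lies below undernourished AL.

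In this comparison 27 of the 29 brain markers fell and 1 rose, and 14 of the 16 skin markers fell and 0 rose (median -2.42). On control AL replicates 1 and 2, the arrays with the most brain signal, members were low: of the 49, 26 had their group's lowest value on the first and 20 on the second, against 36.9% and 28.1% of all genes. Without both arrays Psmg4 and Psmd1 were the members called (17.6% of all genes), and the members' median became -0.00. With brain signal as a covariate Psmg4 was (15.8% of all genes). Without the 5 arrays raised in skin or liver markers (control AL replicates 1, 2 and 3, undernourished AL replicate 3 and undernourished CR replicate 2), which leaves a lone control AL array whose spread is taken from the other groups, 0 members and 3.58% of all genes were called.

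The same comparison in offspring of undernourished dams gave fewer calls. In CR, 3 of 49 members rose, all of them core assembly chaperones, and 2 fell, the alpha subunit Psma5 and the activator Psme3; under quantile normalization 3 rose and 6 fell. Over all genes 10.3% rose and 9.83% fell (20.1% called), and 10.2% of the members were called. Of the brain markers 21 of 29 fell and 1 rose. The members' median difference was 0.00, as over all genes, and 25 of 49 were above 0. The groups did not overlap for 7 members that were higher in CR (13.4% of all genes) and for 3 that were lower (12.6%).

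Psmg4 was at 1.65, 1.96, 0.94 and 1.08 in undernourished AL and at 2.08, 1.93, 1.97 and 2.64 in undernourished CR. The second AL pool lay inside the CR range, and the rise was 0.75 ± 0.21 (adjusted p = 0.0244, limma). Without AL replicate 3 or 4 or CR replicate 4 the adjusted p was 0.0675 to 0.0789. Psmg2 was at 2.80, 2.70, 2.62 and 2.82 in undernourished AL and at 3.11, 3.16, 3.20 and 3.62 in undernourished CR. It rose by 0.54 ± 0.14 with no overlap (adjusted p = 0.0165, limma), and its second probe rose by 0.57. Psmg2 and Psmg4 were the 2 members that rose in both comparisons. Psmg2 was called under all 13 alternatives here and Psmg1 under 12 of them.

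Psmg1, the scaffold that forms a pair with Psmg2, was at 0.45, 0.09, 0.18 and 0.16 in undernourished AL and at 0.65, 0.39, 0.83 and 0.84 in undernourished CR. It rose by 0.46 ± 0.12 (adjusted p = 0.0133, limma), with 1 CR pool below the highest AL pool. In offspring of control dams its values lay within a narrow range, from 0.57 to 0.64 in AL and from 0.62 to 0.73 in CR, while 3 of the 4 AL pools of undernourished dams were at 0.18 or below. Neither the maternal difference in AL nor the interaction was called for Psmg1 (adjusted p = 0.154 and 0.507, limma). The fourth chaperone, Psmg3, differed by -0.05 ± 0.14.

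Psma5 was at 6.03, 6.08, 6.02 and 6.02 in undernourished AL and at 5.44, 5.67, 5.52 and 5.73 in undernourished CR. Every CR pool was below every AL pool, a fall of 0.45 ± 0.14 on the log2 scale (adjusted p = 0.0342, limma), while it differed by -0.12 in offspring of control dams. Psme3 was at 6.56, 6.19, 6.32 and 5.89 in undernourished AL and at 5.48, 5.83, 5.93 and 5.63 in undernourished CR. The groups overlapped slightly, and it fell by 0.52 ± 0.16 (adjusted p = 0.0315, limma). Neither of these was called with each array centred on its median or in the authors' values, where both signs turned, or with slide as a random block. Leaving out any of these 8 arrays except CR replicate 4 ended the call of Psma5 (adjusted p 0.0526 to 0.0937), and leaving out AL replicate 1, 2 or 3 or CR replicate 1 or 4 ended that of Psme3 (0.0546 to 0.0932).

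None of the 11 non-ATPase cap subunits was called in these offspring on the probe used. A further probe of Psmd12 fell by 0.71 (adjusted p = 0.00349, limma), while the probe used was at -0.07. Of the 19 further probes of 16 members, 1 was called here in the direction of a called first probe. Where the first was not called, 3 further probes rose and 3 fell. Psmd13 came nearest, at 0.29 ± 0.11 (adjusted p = 0.0725, limma), and the scaffolds Psmd1 and Psmd2 differed by 0.22 and 0.25, with no overlap between groups for either. Psmd11, a lid subunit, was at 5.91, 6.03, 6.19 and 6.62 in undernourished AL and at 5.59, 5.62, 5.58 and 6.08 in undernourished CR, a difference of -0.47 with overlapping groups (adjusted p = 0.105, limma). Psmc5, an ATPase, differed by -0.29 with no overlap and was not called (adjusted p = 0.0972, limma). Psmd5 differed by 0.22 ± 0.12.

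Nor was any beta subunit called. Psmb2, of the constitutive ring, had its smallest p at 0.30 ± 0.16. Psmb5 differed by -0.03 (interval -0.35 to 0.28), Psmb6 by -0.27 (interval -0.61 to 0.07) and Psmb7 by 0.08 (interval -0.18 to 0.34). Among the inducible subunits Psmb8 differed by -0.20, Psmb9 by -0.33 (adjusted p = 0.347, limma) and Psmb10 by -0.00. Psme1 differed by 0.26 ± 0.14 and Psme4 by -0.07 ± 0.14. Psme2 was at 4.63, 4.49, 4.24 and 4.37 in undernourished AL and at 4.68, 4.67, 4.67 and 4.81 in undernourished CR. Its pools did not overlap, and while the probe used was not called (0.28 ± 0.13, adjusted p = 0.136), its second probe rose by 0.51 here and by 0.38 in offspring of control dams. Psmf1 differed by -0.14 ± 0.12. Of the leukocyte markers, 1 of 20 fell in this comparison.

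**Figure D3:**
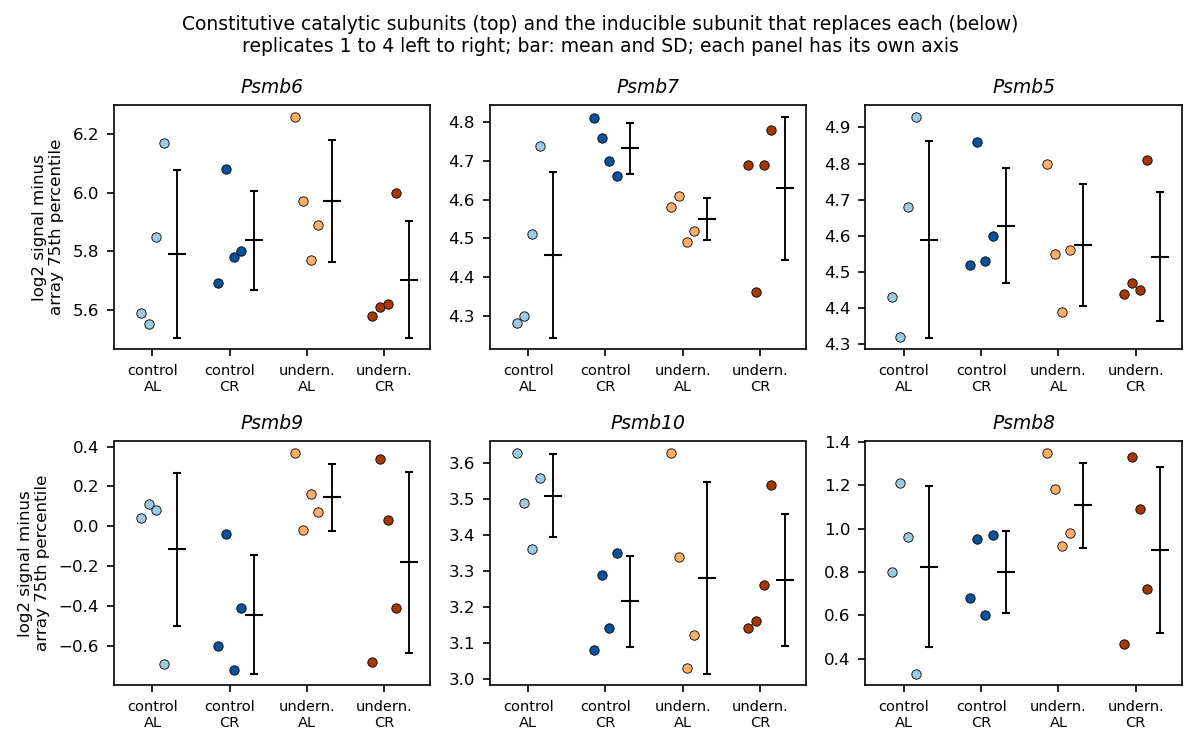
Log2 signal minus the array's 75th percentile (y axis, a separate scale in each panel) on every array, by group (x axis; replicates 1 to 4 from left to right), for the 3 constitutive active-site subunits (top) and the inducible subunit that takes the place of each (bottom). Marks and bars are the mean and SD of 4 arrays. Psmb10 in control CR, between 3.08 and 3.35, lies below control AL, and all other pairs of diet groups overlap.

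The maternal comparison asked whether undernutrition of the dam changed these genes in the offspring. Among AL offspring, no member was called (0.0322% of all genes were, 0.0121% higher and 0.0201% lower), and with slide as a block 0 members but 7.93% of all genes were called. Without control AL replicate 4 that share was 9.21%, again with 0 members. With no block and all arrays, 7 of 49 members had an unadjusted p under 0.05 (19% of all genes). The median difference, undernourished minus control, was 0.18, against 0.07 over all genes, and 39 of 49 members were above 0. Psmg1 came nearest to a call. Its 4 undernourished AL pools, at 0.45 or below, lay under all 4 control AL pools, at 0.57 or above, a difference of -0.38 ± 0.12 (adjusted p = 0.154, limma; 2.21% of all genes were lower with no overlap), and the adjusted p was 0.123 with the replicate number as a block and 0.0547 with slide as a block. The difference of Psmg1 was -0.30 on slide 1 and -0.46 on slide 2.

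Of the 49 members, 22 differed in the same direction on both slides, 20 of them above 0. On slide 1, 47 of 49 members were above 0 with a median of 0.35 (0.18 over all genes, 65.5% of them above 0), and on slide 2 20 of 49 were, with a median of -0.03 (-0.05 over all genes, 43.7%). Slide 1 holds control AL replicates 1 and 2. Psmg4 differed by 0.50 ± 0.21 over both slides (adjusted p = 0.220, limma), by 1.0 on slide 1 and by 0.01 on slide 2. The alpha ring ranged from 0.18 to 0.36 over both slides, led by Psma3 at 0.36 ± 0.15, with medians of 0.45 and 0.03 on the slides. Psmd1 differed by 0.27 ± 0.11, Psmd5 by 0.27 ± 0.12, Psmc2 by 0.31 ± 0.14 and Psme4 by 0.32 ± 0.14, with adjusted p from 0.218 to 0.254 (limma). For these the slides were closer, at 0.29 and 0.25 for Psmd1, 0.32 and 0.21 for Psmd5, 0.35 and 0.26 for Psmc2 and 0.46 and 0.18 for Psme4. Without both control AL arrays highest in brain markers, the members' median was 0.00.

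The active sites showed no maternal difference past the test in AL offspring. Psmb5 differed by -0.01, Psmb6 by 0.18 and Psmb7 by 0.10. Psmb10 differed by -0.23, Psmb8 by 0.28 and Psmb9 by 0.26, all with overlapping groups. Among the constitutive beta subunits the smallest p was that of Psmb1, at 0.22 ± 0.13. Psme1, Psme2, Psme3 and Psmf1 differed by -0.07, -0.08, -0.00 and -0.01.

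Among CR offspring no member was called (0% of all genes), and 0 of 49 had an unadjusted p under 0.05 (2.86% of all genes). No member had groups that did not overlap (2.71% of all genes, 1.31% higher and 1.4% lower). The median difference was 0.02. Leaving Psmc3ip aside, members ranged from -0.27 for Psme3 to 0.26 for Psmb9. Psmb5, Psmb6, Psmb7, Psmb8 and Psmb10 differed by -0.08, -0.14, -0.10, 0.10 and 0.06. Psme1, Psme2, Psme4 and Psmf1 differed by -0.16, 0.01, 0.01 and -0.06. The smallest p of the other classes were those of Psma3 at 0.16, Psmc5 at -0.11, Psmd2 at -0.09, Psmd9 at 0.06 and Psmg4 at 0.16. The slides again went opposite ways, with a median of -0.11 and 8 of 49 members above 0 on slide 3, and 0.14 and 43 of 49 on slide 4.

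The interaction asked whether the response to calorie restriction differed between the dam groups. No member was called (0.00403% of all genes), and 2 of 49 had an unadjusted p under 0.05 (9.57% of all genes). The median interaction, the response in undernourished minus that in control offspring, was -0.17, against -0.06 over all genes. Psmg1 was at 0.39 ± 0.16 (adjusted p = 0.507, limma), Psmc2 at -0.43 ± 0.20 (adjusted p = 0.520) and Psmd1 at -0.34 ± 0.16 (adjusted p = 0.527). Psmg4 was at -0.35 ± 0.30 and Psma5 at -0.33 ± 0.20. Of the active sites, Psmb5 was at -0.07, Psmb6 at -0.32, Psmb7 at -0.19, Psmb8 at -0.18, Psmb9 at 0.00 and Psmb10 at 0.29. Psme1, Psme2, Psme3, Psme4 and Psmf1 were at -0.09, 0.09, -0.27, -0.30 and -0.05, and Psmd5 at -0.22. The fewer calls in offspring of undernourished dams were therefore not shown to be a difference between the dam groups.

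Some pools were high or low for members of most classes. Control CR replicate 2 had its group's highest value for 34 of 49 members (26% of all genes), and undernourished CR replicate 4 for 41 of 49 (38.7% of all genes). Their median deviation from the members' means over all arrays was 0.22 and 0.23, against 0.01 and 0.04 over all genes. On control AL replicates 1 and 2 it was -0.31 and -0.30, against -0.18 and -0.15. The inducible and thymic beta class went its own way on those AL arrays, at 0.07 and 0.21, where the other classes of subunits, activators and chaperones lay between -0.49 and -0.12.

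**Figure D4:**
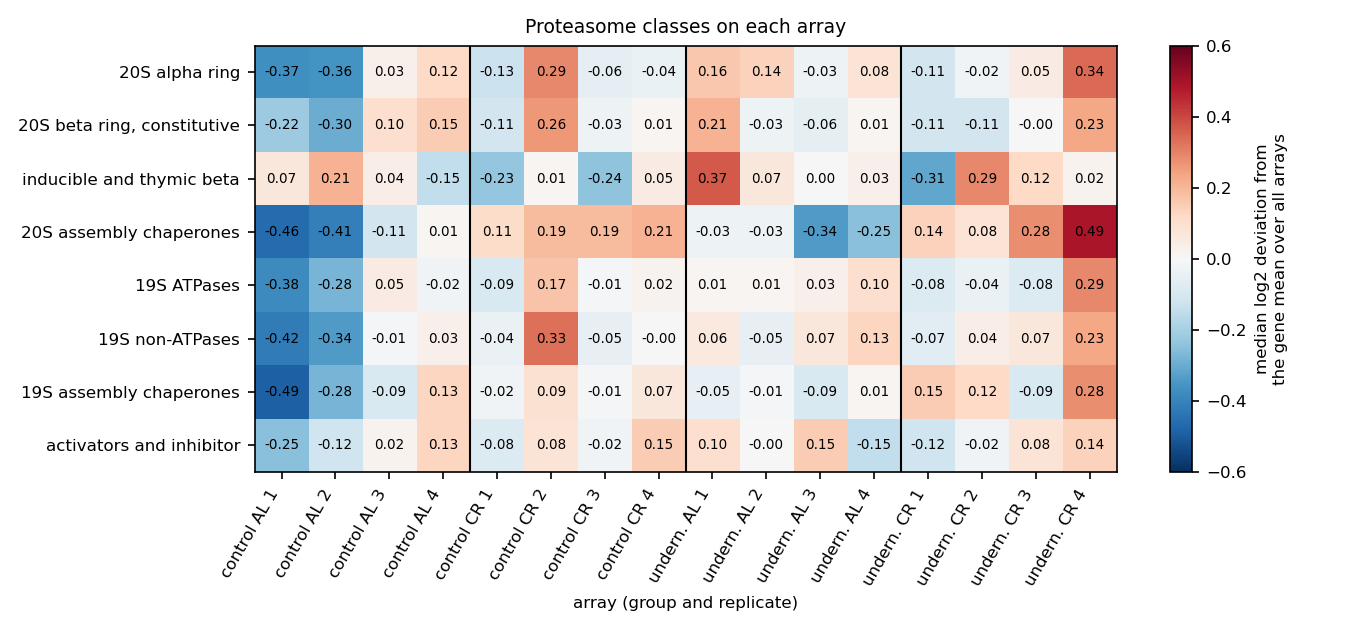
Median log2 deviation of each proteasome class (rows) from the gene means over all 16 arrays, on each array (columns, by group and replicate). Control AL replicates 1 and 2 are low in every class except the inducible and thymic beta subunits, and control CR replicate 2 and undernourished CR replicate 4 are high in most.

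Other genes of the pathway were read from lists, and no list was tested as a set. The counts of each list below stand beside the shares of all genes. In CR offspring of control dams 16.8% of all genes rose and 15.1% fell. In those of undernourished dams 10.3% rose and 9.83% fell. Of 21 measured genes for proteasome accessories and substrate delivery, 3 rose and 1 fell in CR offspring of control dams, and 3 rose and 3 fell in those of undernourished dams. Faf1, a cofactor of the unfoldase p97, rose by 0.97 ± 0.18 and 0.67 ± 0.18, and Bag6, a chaperone of stray membrane proteins, by 0.57 ± 0.13 and 0.53 ± 0.13. Ubqln4, a ubiquitin shuttle, rose by 0.54 in offspring of control dams. Zfand5, an activator of the 26S proteasome, fell by 0.73 ± 0.22 and by 1.01 ± 0.22, and Akirin2, which carries proteasomes into the nucleus, fell by 0.81 ± 0.20 in offspring of undernourished dams, where the shuttle Ubqln2 rose by 0.54. No gene of this list was called for maternal diet or the interaction, with Txnl1 (0.46 ± 0.15) and Ubqln1 (0.43 ± 0.16) nearest among AL offspring.

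Of 17 genes for ubiquitin and the enzymes that activate and carry it, 6 rose and 1 fell in offspring of control dams, and 5 rose and 3 fell in those of undernourished dams. Uba1, the main enzyme that activates ubiquitin, was at 1.51, 1.89, 1.72 and 1.67 in control AL and at 2.67, 2.55, 2.78 and 2.67 in control CR. It rose by 0.97 ± 0.13 (adjusted p = 0.000129, limma) and by 0.49 ± 0.13 in offspring of undernourished dams. Ube2n, a conjugating enzyme for chains linked through lysine 63, rose by 0.53 ± 0.14, and Ube2d3, a conjugating enzyme of broad use, by 0.49 ± 0.17, in offspring of control dams. Its relative Ube2d1 rose by 0.45 ± 0.14 there and by 0.48 ± 0.14 in offspring of undernourished dams, where Uba6 also rose, by 0.48, and the chain-extending ligase Ube4b fell by 0.63 ± 0.19. Ube2l3 rose by 0.45 in offspring of control dams.

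The muscle ubiquitin ligases held the largest changes of these lists. Fbxo32 (atrogin-1), which marks proteins for destruction in wasting muscle, was at 7.18, 6.95, 7.90 and 7.11 in control AL and at 3.82, 5.03, 6.15 and 5.46 in control CR. It fell by 2.17 ± 0.55 in offspring of control dams and by 2.23 ± 0.55 in those of undernourished dams (adjusted p = 0.00775 and 0.0115, limma). Trim63 (MuRF1), which targets the thick filament, fell by 1.78 ± 0.44 and by 1.86 ± 0.44. Fbxo30 fell by 0.92 ± 0.24 and by 1.41 ± 0.24. Of 11 ligases measured, 5 rose and 4 fell in offspring of control dams, among them Znrf2, which rose by 0.87, and 1 rose and 3 fell in those of undernourished dams, where Nedd4 rose by 0.38.

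Of 15 measured genes around NRF1, 3 rose and 1 fell in offspring of control dams, and 1 rose and 4 fell in those of undernourished dams. Bach1, a repressor at antioxidant elements, fell by 1.71 ± 0.30 and by 1.67 ± 0.30. Nfyc, of the factor that binds the CCAAT box, rose by 1.15 ± 0.15 and by 0.67 ± 0.15, and Nfya of the same factor by 0.81 ± 0.26 in offspring of control dams. Ngly1, the enzyme that trims sugars from NRF1, rose there by 0.40 ± 0.14. The small Maf partners Maff, Mafk and Mafg fell by 2.06 ± 0.61, 1.22 ± 0.32 and 0.86 ± 0.15 in offspring of undernourished dams.

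Of 21 measured genes of antigen presentation and interferon response, 2 rose and 1 fell in offspring of control dams, and 0 rose and 1 fell in those of undernourished dams. The interferon gamma receptor chain Ifngr2 rose by 0.58 ± 0.17 in offspring of control dams, where Ube2l6, which conjugates ISG15, rose by 0.51 ± 0.15. The other chain, Ifngr1, fell by 0.38 ± 0.13 and by 0.47 ± 0.13. None of the lists had a call for maternal diet or the interaction. Among AL offspring the nearest were Znrf2 at 0.71 ± 0.18 and Nfyc at 0.56 ± 0.15, each with an adjusted p of 0.153 (limma), then Nfya at 0.82, Mdm2 at 0.49, Uba1 at 0.36, Ube2k at 0.30, Ube2l6 at 0.34 and Irf8 at 0.34.

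**Figure D5:**
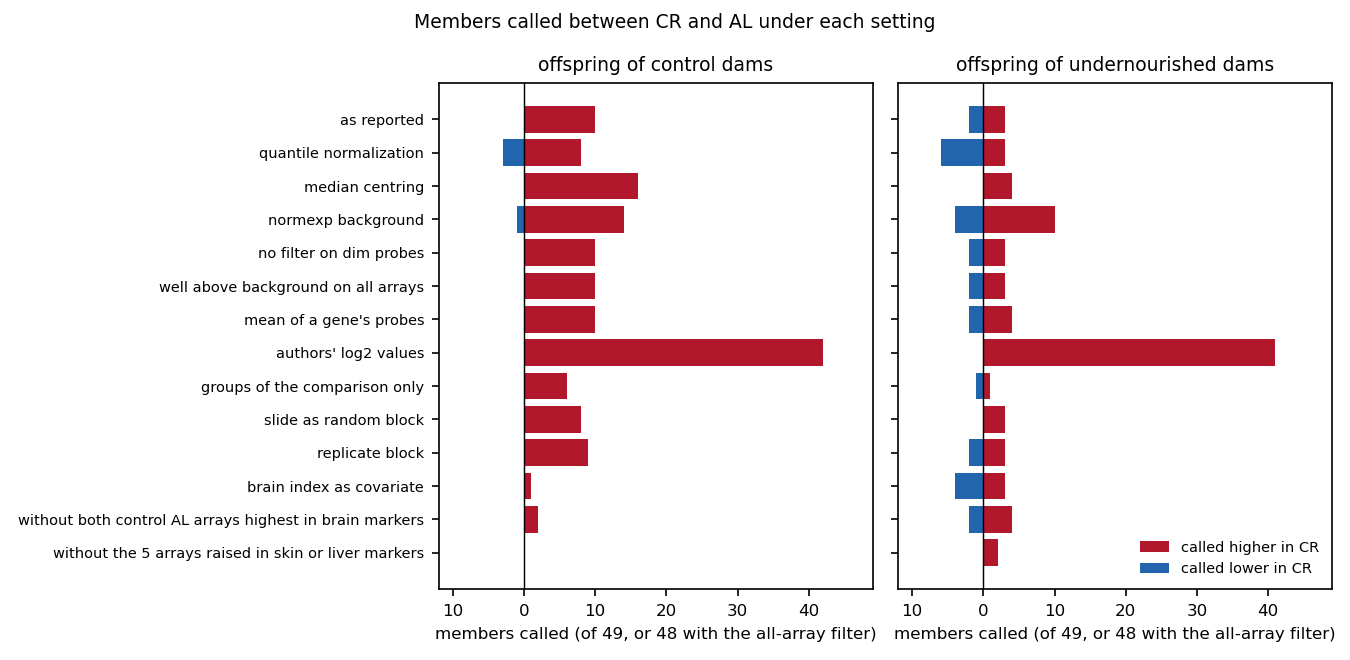
Number of members called between CR and AL (x axis; higher in CR to the right, lower to the left) under the settings of the report and each alternative (y axis), in offspring of control dams (left) and of undernourished dams (right). The authors' log2 values gave 42 and 41 calls, and leaving out the arrays raised in skin or liver markers 0 and 2.

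The counts also moved with the choice of scale. Relative to the median of all genes, the members' median in offspring of control dams was 0.11 higher as reported and with median centring, 0.36 with normexp background correction, 0.30 in the authors' log2 values and -0.16 with quantile normalization. Of the genes called, the part higher in CR, 52.7% as reported, was 62.9% under quantile normalization, 70% under median centring, 33% under normexp, 34.9% with no filter on dim probes and 81.4% in the authors' values. In offspring of undernourished dams it was 51.1% as reported and 62.4%, 67.5%, 22.6%, 28.6% and 87.1% in that order. Psmg2 and Psmg4 rose in both comparisons under each of these scales.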

How the data were processed

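Each of the 16 one-colour arrays held RNA of 1 pool. Spots were read with Agilent Feature Extraction 10.5.1.1, per the submitters' processing notes. The processed signal is a deposited intensity, with background subtracted by the scanner software and no step between arrays, and the spot flags (0 or 1) come from the same deposited files, per the file headers. The signal was put on the log2 scale minus each array's 75th percentile (376.6 to 807 intensity units). Outlier spots (53 to 176 per array) and controls were left out, and spots of 1 probe were averaged. Of the spots, 66.4% to 78.5% per array were well above background, and the number of arrays limits the precision. A probe was kept where at least 4 arrays read it well above background (32081 of 41174). Accessions were matched to symbols in RefSeq's table for GRCm38.p6 (24844 probes to 17178 symbols, 16330 unmatched), and the probe with the highest mean stood for a gene.

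limma 3.58.1 (R 4.3.3) was fitted over all 16 arrays with a mean per group, and Benjamini-Hochberg adjustment ran over 24829 genes, two-sided. The fit was also run on simulated arrays with independent noise for each gene. These held no slide, scan-day or tissue differences, so that run does not bear on them. The members and lists were chosen with earlier results of these data known. Members called were named with values, with the active sites, activators and inhibitor in every comparison, the smallest p of each other class, and up to 4 called genes of each list (or 2 with the smallest p).

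Alternatives were quantile normalization, median centring, normexp (offset 50), other filters and probe rules, the authors' log2 values, fewer arrays, slide and replicate blocks and a brain covariate. normexp was fitted on the median signals, with flagged spots left out of the fit, a choice made after the data were seen. The deposited log2 values of the authors have a median of 0 for each probe; how they were normalized is not stated by the sources used here. They tracked the scanner values in direction (median correlation of array differences 0.957, slope 0.816 over 120 pairs of arrays). By array, the median of their columns for control AL was -0.0874, -0.0994, -0.0262 and -0.0037, and it was 0.0264, 0.0297, 0.0301 and 0.0370 in control CR, -0.0432, -0.0232, -0.0085 and -0.0084 in undernourished AL and 0.0262, 0.0322, 0.0336 and 0.0167 in undernourished CR.

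Replicate numbers were checked for pairing by the correlation of same-numbered arrays' deviations from their group means. It was 0.393, 0.123, 0.113 and 0.441 between dam groups in AL, and these were taken as paired, although replicates 2 and 3 correlated more with another number (0.243 and 0.249). It was 0.0175 to 0.226 between dam groups in CR and -0.145 to 0.0762 between diets, and these were not. In CR, replicates 1 and 2 correlated most with their own number. Same-numbered arrays of the dam groups share a slide in CR as in AL, so the shared slide does not set AL apart. The fit reported for every comparison had no block. Replicate number and slide entered as blocks only in the alternatives.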

Additional observations from a re-analysis of the deposited data

Results flagged for a closer look

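Of 196 groups of 4 arrays (49 members in 4 groups), 18 had 1 array far from the other 3, where chance gives about 1 in 20 (5%) for a single group of 4. Members share arrays and move together on them, so the 196 are not independent and the 18 cannot be weighed against that rate. The members' median deviation was tested in the same way in the 4 groups, and no array was far off. Undernourished CR replicate 4 was the array in 6 of the 18 with a high value and in 1 with a low one. It stood at 4.81 for Psmb5 (others 4.44 to 4.47), 6.0 for Psmb6 (5.58 to 5.62), 5.63 for Psmd6 (5.22 to 5.28), 6.08 for Psmd11 (5.58 to 5.62), 4.81 for Psme2 (4.67 to 4.68) and 2.27 for Psmg3 (1.89 to 1.94). It was low, at 2.02, for Psme3ip1 (2.16 to 2.18). These span the active sites, the lid, an activator and a chaperone.

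Control CR replicate 2 was high for Psma7 at 6.69 (others 6.13 to 6.20), Psmb3 at 5.95 (5.63 to 5.65), Psmd3 at 6.97 (6.32 to 6.36) and Psmd7 at 5.03 (4.57 to 4.62). Undernourished AL replicate 4 was high for Psma1 at 5.11 (4.94 to 4.97) and Psmc6 at 5.82 (5.64 to 5.67). Undernourished AL replicate 1 was high for Psma3 at 4.51 (4.35 to 4.36) and Psmb1 at 4.68 (4.47 to 4.5), and low for Psmd1 at 3.56 (3.91 to 3.92). Undernourished AL replicate 2 was low for Psmd2 at 5.13 (5.34 to 5.36). Control AL replicate 4 was low for Psmb9 at -0.69 (0.04 to 0.11).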

How the results depend on the processing

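Of the alternatives run, 10 members called in offspring of control dams became 16 with median centring, 42 in the authors' log2 values, 6 with only the groups compared, 1 with the brain covariate, 2 without both control AL arrays highest in brain markers and 0 without the 5 arrays raised in skin or liver markers. The share of all genes called went from 31.9% to 38.3%, 56.4%, 27.4%, 15.8%, 17.6% and 3.58% in that order. The range was 7 to 14 when 1 array was left out. The members' median of 0.17 became -0.00 with quantile normalization, 0.35, 0.59, -0.04, -0.00 and -0.02 in the other settings just named (without groups only), and 0.10 to 0.25 with 1 array left out. Also in offspring of control dams, 14 members rose and 1 fell with normexp (48.4% of all genes called). With slide as a random block 8 rose and 0 fell (27.1%). In offspring of undernourished dams the 5 calls became 9 with quantile normalization, 14 with normexp, 41 in the authors' values, 2 with only the groups compared, 3 with slide as a random block, 2 without the 5 arrays, and 2 to 4 with 1 array left out. The share of all genes went from 20.1% to 21.9%, 52.2%, 47.7%, 18.1%, 15.6% and 14.3% in that order. Their median became 0.58 in the authors' values and -0.09 to 0.06 with 1 array left out.

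No alternative gave a call for maternal diet or the interaction. The maternal median in AL became -0.01 with the brain covariate, 0.00 without both arrays and -0.05 without the 5 (0.12 to 0.28 with 1 array left out; -0.05 to 0.07 in CR), and that of the interaction 0.01, 0.02 and 0.04 (-0.24 to -0.10). With the replicate block, 9 members rose in offspring of control dams, 3 rose and 2 fell in those of undernourished dams and 0 were called in the other comparisons; Psmc3 lost its call and no other call changed.

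Of the members named by the rule given above, those called as reported or in the alternative reversed their sign only in the authors' values. In offspring of control dams these were Psma5 (0.38), Psmf1 (0.41) and Psmc5 (0.22). In those of undernourished dams they were Psma5 (0.19), Psme3 (0.10), Psmb5 (0.58), Psmb6 (0.34), Psmb10 (0.60), Psme4 (0.54), Psmf1 (0.40), Psmc5 (0.21), Psma3 (0.45), Psmb1 (0.58) and Psmc2 (0.29). Members outside that rule also reversed. Psmb11, at 0.21 and 0.25 as reported and not called, was called lower under normexp in both diet comparisons. Psma1, Psmb4 and Psmd10, below 0 as reported in offspring of control dams, were called higher there in the authors' values. In offspring of undernourished dams the same held for Psma1, Psma2, Psma6, Psmc4, Psmd4, Psmd8, Psmd10, Psmd12 and Psmg3. The cause was not tested. Among the other values of named members, 3133 kept sign and side of the threshold, 193 that were called in neither setting changed sign (38 of them without the 5 arrays, 22 without both arrays and 21 with the brain covariate), 78 lost a call and 54 gained one.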
